A study of Mus musculus with 6 samples.

Results

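Sterol and fatty acid synthesis is described here through 30 genes, chosen by symbol as enzymes and regulators of the pathway. All 30 were found among the 29587 gene rows of the expression table, and 29 were expressed highly enough to be tested. The RNA came from mouse osteoblasts that had been killed with ultraviolet light, in 3 libraries from old mice and 3 libraries from young mice. Both groups were prepared alike: stromal cells (named bone marrow mesenchymal stem cells in the labels) were grown out of minced bone, turned into osteoblasts in osteogenic medium and irradiated until nearly all stained with Trypan Blue, a dye that enters dead cells. The labels give no genotype and give the age of the donors only as old or young. Whether each library stands for its own animal or culture is not stated. The p-values set the group difference against the scatter of these 6 libraries within groups, estimated in part from all genes tested. That scatter may be technical, so the p-values speak only for these 6 libraries. The comparison asks whether the age of the donor mice goes with a different level of these transcripts in the dying cells.

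Cholesterol is built from acetyl-CoA through the mevalonate pathway, squalene and lanosterol, and the same acetyl-CoA feeds fatty acid synthesis. Transcription of both branches is driven by the sterol regulatory element binding proteins, encoded by Srebf1 and Srebf2. They are escorted by Scap from the endoplasmic reticulum for activation when sterols run low and are held back there by Insig proteins when sterols are plentiful. In bone, mevalonate-derived lipids anchor small GTPases to membranes, and the step catalysed by the product of Fdps is the target of nitrogen-containing bisphosphonates in osteoclasts. A transcript level in these libraries is a share of the RNA of a culture, so fewer cells of a type and less RNA per cell cannot be told apart.

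Promoter sequences, 250 bases before to 50 bases after the start, were matched by symbol in RefSeq (GRCm38.p6) for 23 of the 30 genes. Fads1, Fdft1, Sqle, Stard4, Fdps, Scd1 and Scd2 had no entry. They were searched on both strands for the sterol regulatory element TCACNCCAC, the NF-Y box CCAAT, the Sp1 box GGGCGG and the E-box CACGTG. The promoters of Hmgcs1, Insig1, Acat2 and Fasn are printed because Hmgcs1 is a classical target of the pathway's transcription factors and Insig1 its feedback regulator, Acat2 was nearest to a call, and Fasn is the central enzyme of the fatty acid branch. Capitals mark matches of any of these 4 motifs on either strand.
Hmgcs1, chr13:119690101-119690400, plus strand: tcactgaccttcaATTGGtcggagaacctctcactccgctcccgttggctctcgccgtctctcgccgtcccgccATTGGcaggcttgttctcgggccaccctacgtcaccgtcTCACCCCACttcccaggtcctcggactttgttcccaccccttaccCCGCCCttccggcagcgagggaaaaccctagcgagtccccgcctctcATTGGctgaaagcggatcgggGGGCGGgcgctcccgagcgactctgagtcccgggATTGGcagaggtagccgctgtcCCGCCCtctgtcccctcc
Insig1, chr5:28071162-28071461, plus strand: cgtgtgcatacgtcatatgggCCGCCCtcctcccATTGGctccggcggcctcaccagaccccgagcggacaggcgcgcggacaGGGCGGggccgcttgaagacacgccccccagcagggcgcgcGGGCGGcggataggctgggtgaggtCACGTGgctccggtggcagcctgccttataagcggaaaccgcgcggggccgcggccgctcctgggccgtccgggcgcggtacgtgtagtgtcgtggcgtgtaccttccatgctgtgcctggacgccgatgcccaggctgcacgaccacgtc
Acat2, chr17:12960676-12960975, minus strand: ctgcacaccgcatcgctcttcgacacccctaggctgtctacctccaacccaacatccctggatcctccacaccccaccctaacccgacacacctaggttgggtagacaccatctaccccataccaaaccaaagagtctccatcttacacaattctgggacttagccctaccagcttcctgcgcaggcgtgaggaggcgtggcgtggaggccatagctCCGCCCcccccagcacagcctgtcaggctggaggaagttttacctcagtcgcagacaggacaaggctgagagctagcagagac
Fasn, chr11:120824498-120824797, minus strand: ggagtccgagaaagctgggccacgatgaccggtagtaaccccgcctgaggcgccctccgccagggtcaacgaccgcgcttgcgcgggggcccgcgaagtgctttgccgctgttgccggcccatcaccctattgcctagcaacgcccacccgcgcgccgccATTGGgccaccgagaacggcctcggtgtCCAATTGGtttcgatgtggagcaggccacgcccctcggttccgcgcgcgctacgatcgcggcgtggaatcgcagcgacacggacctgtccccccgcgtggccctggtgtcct
The Hmgcs1 promoter held 1 sterol regulatory element, beginning 137 bases before the RefSeq start, with 4 CCAAT and 3 GGGCGG boxes. That start lies upstream of the deposited Hmgcs1 gene row, which begins at 119690462, and the end of the window was not found in a transcript of the gene in the annotation used. Insig1 had 1 CCAAT box, 3 GGGCGG boxes and 1 E-box. Acat2 had 1 GGGCGG box, and Fasn had 3 CCAAT boxes, of which 2 overlapped on opposite strands. By this spelling the sterol regulatory element stood in 1 of the 23 genes, where 1.44% of all 27025 genes with a promoter entry had it. CCAAT stood in 18 of the 23, against 41.1% of all genes, and GGGCGG in 19 of the 23, against 38.2%. The E-box stood in 5 of the 23, against 8.09% of all genes. Among all 32851 promoters the shares were 1.24%, 37.4%, 35.7% and 7.15%. The genes compared against were not matched for expression or base content, so no excess particular to the pathway is read from these shares. The matches describe the letters in the windows and show no binding.

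None of the 29 tested genes passed limma's test between old and young, with 0 called higher and 0 called lower at an adjusted p under 0.05. Over all 12015 genes tested, 1.47% were called higher and 0.0999% lower in old, so a list of this size would hold few calls at the background rate. At an unadjusted limma p under 0.05 there were 0 higher and 2 lower genes, Acat2 and Hmgcs1, where the background was 5.98% higher and 5.25% lower. Limma's voom on recovered reads also called 0 in either direction, with 1.35% of all genes higher and 0.0666% lower. The log2 fold changes, given as old over young on the log2(RPKM + 1) scale throughout, ran from -0.42 in Acat2 to 0.25 in Srebf2, with a median of -0.06 beside a median of 0.01 over all genes tested. Their sign was negative in 19 genes and positive in 10, where 51.2% of all genes tested were positive. The uncertainty was large: the 95% intervals reached between 0.19 and 0.94 to either side of the estimate, with a median of 0.31, and 27 of the 29 included 0. The plot of log2 fold changes with their intervals shows these side by side with the values without young replicate 1.

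**Figure D1:**
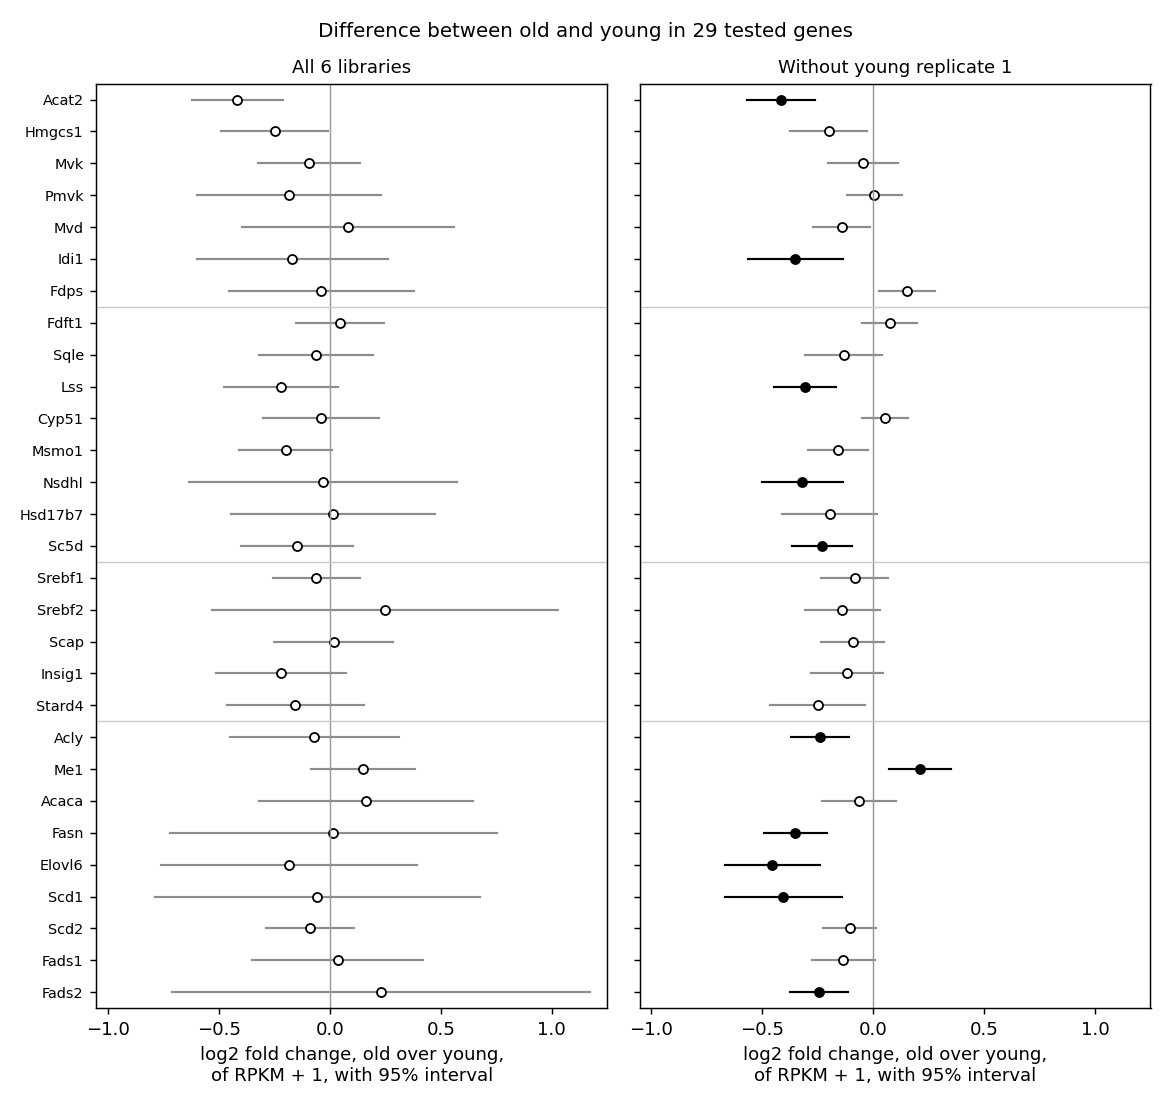
Log2 fold change of old over young, on the log2(RPKM + 1) scale, for the 29 tested genes with limma's 95% interval, in all 6 libraries (left) and without young replicate 1 (right). Grey lines part the mevalonate pathway, squalene and sterol synthesis, sterol sensing and transport, and fatty acid genes. Filled points mark an adjusted p under 0.05, which holds for 0 genes on the left and for 11 on the right. Of all genes tested, 1.47% were called higher and 0.0999% lower on the left, and 13.2% and 19.4% on the right.

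The young libraries were not alike. Young replicate 1 had the fewest recovered reads, 64881180, against 75456146 to 84535939 in the other libraries, and mitochondrially encoded genes took 1.05% of its reads, against 1.62 to 1.89% in the old libraries and 2.13 and 2.29% in young replicates 2 and 3. Pearson's r of its log2 values was 0.949 with young replicate 2 and 0.962 with young replicate 3, across genes, which are not independent replicates. Between old libraries r was 0.995 to 0.997, and between the other young libraries it was 0.996. Without it, 13.2% of all tested genes were called higher and 19.4% lower in old, and of the 29 genes of the pathway 1 was called higher and 10 lower. That is 3.45% and 34.5% of them. The median log2 fold change was then -0.14, beside -0.05 over all genes tested. Removing each library's trend on gene length left 219 genes higher and 44 lower over the whole table, so that 83.3% of calls were higher in old, against 93.7% of the 177 higher and 12 lower genes without that step. With that step 1.82% of all genes were called higher and 0.366% lower, and 1 pathway gene, Acat2, was called lower. Giving each library 1 weight for the whole table called 17.6% of all genes higher and 24.6% lower, with 1 and 10 pathway genes. An adjusted p under 0.1 took in 2.11% and 0.516% of all genes, and 0 and 1 pathway genes. The part of read depth, mitochondrial share and gene length in the position of young replicate 1 was not tested.

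Osteoblast transcripts were abundant in every library. Of 11 osteoblast markers, 9 reached 1 RPKM (a read count scaled by gene length and library depth) in at least 1 library, and the sum of all 11 was 4038 to 4117 RPKM in old and 3116 to 4270 RPKM in young, while Alpl and Bglap stayed under 1 RPKM in every library. That sum hides markers that separated the groups in opposite directions, picked here after their values were seen. Spp1, which encodes osteopontin, was at 691, 694 and 811 RPKM in old and at 376, 233 and 262 RPKM in young. Sp7, the osteoblast transcription factor osterix, was at 4.89, 4.88 and 4.94 RPKM in old and at 8.40, 7.89 and 9.02 RPKM in young. Dmp1, a matrix protein of osteocytes and late osteoblasts, was at 2.46, 2.32 and 2.37 RPKM in old and at 1.00, 1.65 and 1.40 RPKM in young. Old was thus wholly above young in Spp1 and Dmp1 and wholly below it in Sp7. Bglap also lay wholly above, at 0.900, 0.686 and 0.641 RPKM in old and at 0.399, 0.459 and 0.390 RPKM in young. Runx2 also lay wholly below, at 4.03, 3.67 and 4.02 RPKM in old and at 4.18, 5.66 and 5.50 RPKM in young. The other osteoblast markers overlapped. Among all genes tested, 10.6% had old wholly above young and 10.2% wholly below. The 7 adipocyte markers found in the table, Adipoq, Plin1, Fabp4, Lep, Retn, Pparg and Lpl, summed to 0.108 to 0.148 RPKM in old and 0.0803 to 0.111 RPKM in young, and each was below 0.2 RPKM in all 6 libraries. The endothelial, lymphocyte and erythroid markers found were also all below 0.2 RPKM. Among myeloid markers Lyz2 alone exceeded 1.1 RPKM, and the defining genes Ptprc and Adgre1 were at or near 0. The sum of 7 myeloid markers was 8.57 to 10.0 RPKM in old and 7.98 to 9.27 RPKM in young. The 5 osteoclast markers summed to 27.0 to 28.9 RPKM in old and 28.9 to 36.5 RPKM in young, and all but Ctsk were below 0.2 RPKM. The 5 muscle markers summed to 2.95 to 4.01 RPKM in old and 1.51 to 3.08 RPKM in young, most of it Mb. The part of these cell types, and of the osteoblast markers that separated the groups, in the results was not tested.

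Levels in RPKM, which are per length, differed widely among the 30 genes. Scd2, a stearoyl-CoA desaturase, stood highest, followed by Fads2 and Cyp51, and Hsd17b7 and Dhcr7 stood lowest. The 9 fatty acid genes together had 271, 252 and 270 RPKM in old replicates 1, 2 and 3 and 204, 303 and 298 RPKM in young replicates 1, 2 and 3. The 7 mevalonate genes had 153, 147 and 152 RPKM in old and 187, 161 and 162 RPKM in young. Summed in this way, young replicate 1 was thus the lowest library for fatty acid genes and the highest for mevalonate genes. Abundant genes weigh most in these sums, and single genes differed. Hmgcs1, Mvk, Pmvk and Fdps were highest in young replicate 1, while Mvd and Idi1 were lowest there. Among fatty acid genes Fads2 was at 30.3 RPKM in young replicate 1 against 85.0 and 80.7 RPKM in young replicates 2 and 3, while Me1 lay above both. The old libraries differed little among themselves in either sum.

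**Figure D2:**
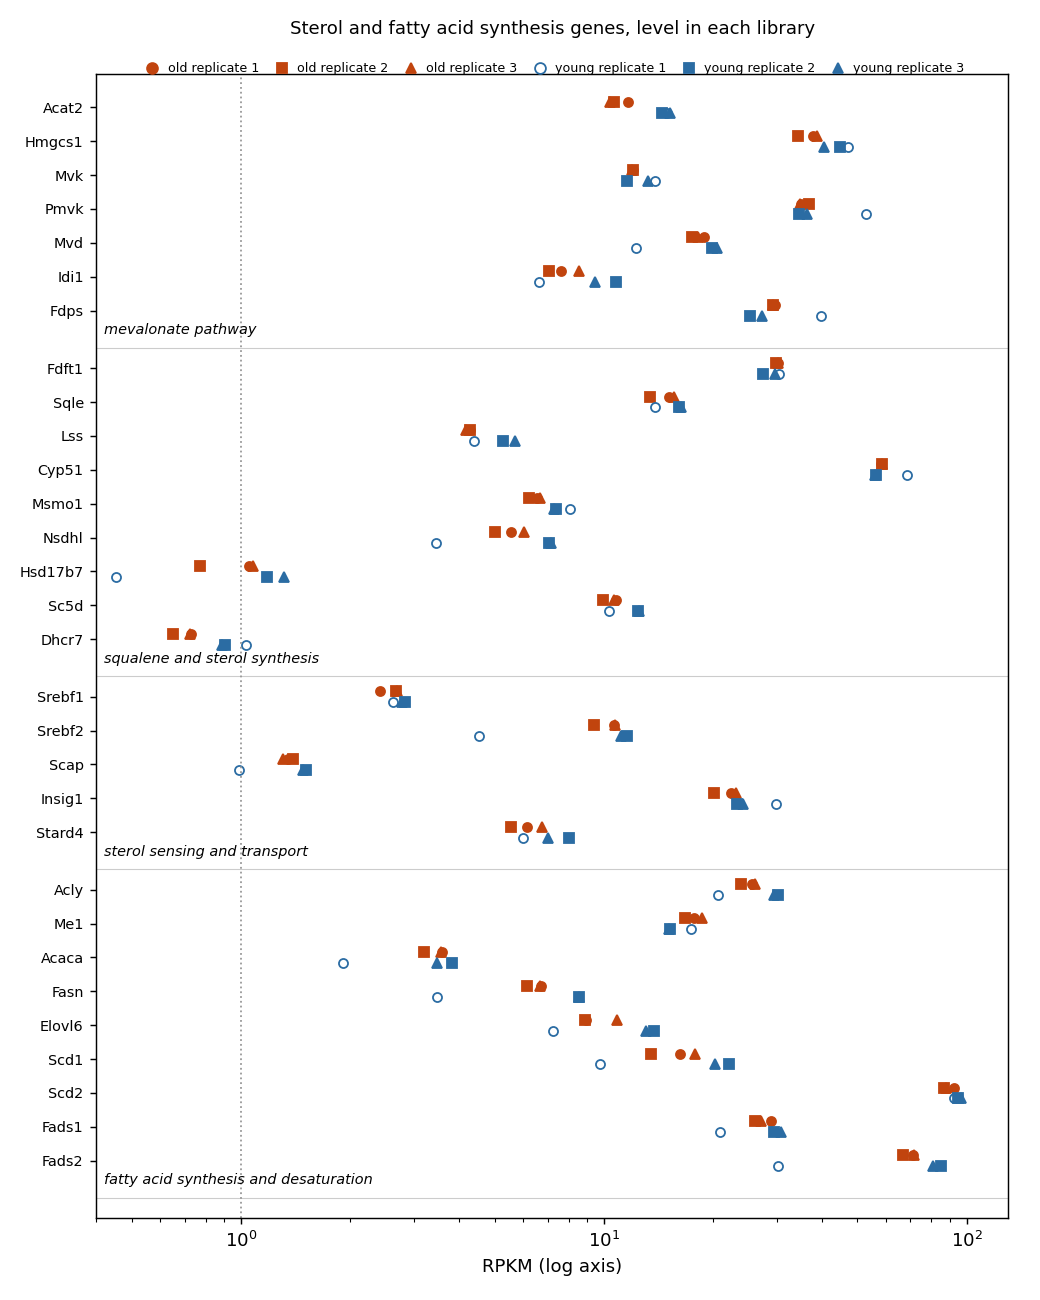
Level of each of the 30 genes in every library, in RPKM on a log axis, grouped by role, with the old libraries above the young ones in each row; open circles are young replicate 1 and the dotted line marks 1 RPKM. The open circles lie apart from the other young libraries in many rows, for instance to the right for Pmvk and Fdps. In 8 of the 9 fatty acid genes they lie to the left, though only slightly for Scd2 (92.1 against 94.8 and 96.5 RPKM).

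Of the 7 mevalonate pathway genes 0 were called higher and 0 lower with all libraries. Without young replicate 1 there were 0 called higher and 2 lower, Acat2 and Idi1, where 13.2% and 19.4% of all genes were called. Old libraries lay wholly below young ones in Acat2 and Hmgcs1. Acat2, the cytosolic thiolase that joins acetyl-CoA units, lies on chromosome 17 from 12942890 to 12960747 (mm10) and was at 11.6, 10.6 and 10.4 RPKM in old and at 14.9, 14.4 and 15.2 RPKM in young. The groups did not overlap and young replicate 1 lay between the other young libraries. The log2 fold change was -0.42 ± 0.08 (SE, limma adjusted p = 0.0962), and without young replicate 1 it was -0.41 ± 0.06 (SE, limma adjusted p = 0.00651). Over all genes tested, 10.2% had old libraries entirely below young ones and 10.6% entirely above. Acat2 shared 45.9% of its 50-base stretches with its paralog Acat3, which was at 56.5, 58.8 and 53.1 RPKM in old and 68.1, 43.3 and 48.4 RPKM in young. It shared 13.2% with Tcp1 on the opposite strand, which was at 180, 188 and 181 RPKM in old and 223, 160 and 167 RPKM in young. The division of reads among these genes is uncertain, and so is the value of Acat2.

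Hmgcs1 makes hydroxymethylglutaryl-CoA from the product of that thiolase. It was at 37.7, 34.3 and 38.8 RPKM in old and at 47.1, 44.6 and 40.4 RPKM in young, with groups that did not overlap. The log2 fold change of -0.25 ± 0.10 was not called (SE, limma adjusted p = 0.431), nor was it without young replicate 1, at -0.20 ± 0.07 (SE, limma adjusted p = 0.0754). Mvk and Pmvk, the kinases that phosphorylate mevalonate in turn, showed no separation of the groups. Mvk had 12.0, 12.0 and 11.9 RPKM in old and 13.9, 11.6 and 13.3 RPKM in young. Pmvk had 35.0, 36.8 and 34.7 RPKM in old and 52.8, 34.5 and 36.2 RPKM in young. In Pmvk the high value of young replicate 1 alone set the group means apart, and the log2 fold change was -0.18 with it and 0.01 without it. Mvd, the decarboxylase that yields isopentenyl diphosphate, had 18.9, 17.5 and 18.2 RPKM in old and 12.2, 19.9 and 20.5 RPKM in young. Here young replicate 1 was the low library, and the log2 fold change was 0.08 with it and -0.14 without it.

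Idi1, the isomerase that makes dimethylallyl diphosphate, was at 7.64, 7.06 and 8.53 RPKM in old and at 6.62, 10.8 and 9.43 RPKM in young. Old lay below young replicates 2 and 3 and above young replicate 1. Its log2 fold change was -0.17 ± 0.18 (SE, limma adjusted p = 0.906), and without young replicate 1 it was called lower at -0.35 ± 0.09 (SE, limma adjusted p = 0.029). Fdps, the farnesyl diphosphate synthase, was at 29.7, 29.2 and 29.2 RPKM in old and at 39.6, 25.3 and 27.4 RPKM in young, so the old values lay between those of the young libraries. Its log2 fold change was -0.04 with a 95% interval from -0.46 to 0.38, and 0.15 without young replicate 1. The row of Fdps overlapped Gm43738 on the same strand over 1124 exon bases, and 86.4% of the 50-base stretches of its longest coding transcript occurred in transcripts of other genes, so its level is uncertain. Idi1 shared 30.5% of its stretches with other genes and Hmgcs1 13.6%.

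Squalene and sterol synthesis genes held 0 called genes among 8 tested, and 3 were called lower and 0 higher without young replicate 1, where 19.4% and 13.2% of all genes were called. Fdft1, the squalene synthase at the entry to the sterol branch, had 30.3, 29.9 and 30.2 RPKM in old and 30.4, 27.5 and 29.6 RPKM in young. Sqle, the squalene epoxidase that catalyses a rate-limiting step, had 15.1, 13.4 and 15.6 RPKM in old and 13.8, 16.1 and 16.3 RPKM in young. Old and young overlapped in both genes. For Fdft1 the log2 fold change was 0.05, with an interval from -0.15 to 0.25, and that of Sqle was -0.06, with an interval from -0.32 to 0.20. The exons of Fdft1 overlapped those of Ctsb on the opposite strand over 767 bases, and whether counting used strand is not given in the sources used here.

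Lss, the lanosterol synthase that closes the ring system, separated the groups. It was at 4.27, 4.27 and 4.17 RPKM in old and at 4.39, 5.28 and 5.68 RPKM in young, young replicate 1 lying just above the old libraries. The log2 fold change was -0.22 ± 0.11 (SE, limma adjusted p = 0.556), and -0.31 ± 0.06 without young replicate 1 (SE, limma adjusted p = 0.0122). Cyp51, the lanosterol demethylase and the most abundant of the 9 squalene and sterol genes, was at 58.0, 58.4 and 58.4 RPKM in old and at 68.6, 56.2 and 55.9 RPKM in young. Its old values were nearly equal, and its log2 fold change was -0.04 with all libraries and 0.06 without young replicate 1. Msmo1, which oxidises methyl groups of lanosterol derivatives, was at 6.54, 6.21 and 6.69 RPKM in old and at 8.09, 7.38 and 7.30 RPKM in young. Old lay wholly below young, and neither the log2 fold change with all libraries, -0.20 ± 0.09 (SE, adjusted p = 0.477 in limma), nor that of -0.16 without young replicate 1 passed the test.

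Nsdhl, which acts on the same demethylation as a dehydrogenase, was at 5.54, 5.01 and 6.01 RPKM in old and at 3.45, 7.05 and 7.17 RPKM in young. Hsd17b7, the reductase of that complex, was at 1.05, 0.774 and 1.08 RPKM in old and at 0.453, 1.18 and 1.32 RPKM in young. In both genes the old libraries lay below young replicates 2 and 3 and above young replicate 1, which held 0.485 and 0.362 of the mean of the other young libraries. Without that library Nsdhl was called lower, at -0.32 ± 0.08 (SE, limma adjusted p = 0.0233), and Hsd17b7 was not, at -0.20 ± 0.09 (SE, limma adjusted p = 0.133). With all libraries their log2 fold changes were -0.03 and 0.01. Sc5d, the desaturase near the end of the pathway, was at 10.8, 9.92 and 10.7 RPKM in old and at 10.3, 12.4 and 12.5 RPKM in young, with a log2 fold change of -0.15 that was not called. Without young replicate 1 it was called lower, at -0.23 ± 0.06 (SE, limma adjusted p = 0.0262). Dhcr7, which makes cholesterol from its last precursor in one branch, did not pass the filter of 1 RPKM in at least 3 libraries, with 0.730, 0.649 and 0.722 RPKM in old and 1.04, 0.901 and 0.885 RPKM in young. Its groups did not overlap, and with no filter its log2 fold change was -0.19 (limma adjusted p = 0.553).

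Sterol sensing and transport genes held 0 called genes among 5, with or without young replicate 1. Of all genes tested, 1.47% were called higher and 0.0999% lower with all libraries, and 13.2% and 19.4% without young replicate 1. A list of 5 genes can hold no call at such rates. Srebf1, whose product drives mainly fatty acid genes, was at 2.42, 2.67 and 2.69 RPKM in old and at 2.63, 2.83 and 2.78 RPKM in young. Srebf2, whose product drives mainly sterol genes, was at 10.7, 9.39 and 10.7 RPKM in old and at 4.54, 11.6 and 11.1 RPKM in young. Srebf1 varied little between any libraries, and Srebf2 varied chiefly through young replicate 1. For Srebf1 the log2 fold change was -0.06, with an interval from -0.25 to 0.13. That of Srebf2 was 0.25, with an interval from -0.53 to 1.03, and it turned to -0.14 without young replicate 1. Scap, the sterol-sensing escort, was at 1.34, 1.39 and 1.30 RPKM in old and at 0.988, 1.52 and 1.48 RPKM in young. With all libraries the log2 fold change was 0.02, and it was -0.09 without young replicate 1.

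Insig1, which retains the escort complex and is itself a target of the pathway's transcription factors, was at 22.4, 20.1 and 23.2 RPKM in old and at 29.7, 23.4 and 24.1 RPKM in young. The groups did not overlap, with the highest old and the lowest young library close to each other, and the log2 fold change of -0.22 ± 0.12 was not called (SE, limma adjusted p = 0.643). Stard4, a cytosolic sterol carrier, was at 6.16, 5.56 and 6.77 RPKM in old and at 5.98, 7.996 and 7.02 RPKM in young. With all libraries the log2 fold change was -0.15, without young replicate 1 it was -0.25, and neither was called (limma adjusted p = 0.835 and 0.0732). Across the 29 genes, 5 had old libraries wholly below young and 0 wholly above, where 10.2% and 10.6% of all tested genes did so.

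In fatty acid genes young replicate 1 stood below the mean of the other young libraries by a median log2 difference of -0.67, beside 0.15 in mevalonate, -0.23 in sterol and -0.28 in sensing genes and -0.14 over all genes tested. Of the 9 genes 0 were called with all libraries, and without young replicate 1 there were 5 called lower (Acly, Fasn, Elovl6, Scd1 and Fads2) and 1 higher (Me1), where 19.4% and 13.2% of all genes were called. Acly, which supplies cytosolic acetyl-CoA from citrate, was at 25.6, 23.9 and 26.0 RPKM in old and at 20.7, 30.3 and 29.5 RPKM in young. Its log2 fold change was -0.07 ± 0.16 (SE, limma adjusted p = 0.975), and -0.24 ± 0.06 without young replicate 1 (SE, limma adjusted p = 0.0213). Me1, the malic enzyme that yields NADPH for synthesis, was at 17.7, 16.8 and 18.7 RPKM in old and at 17.4, 15.2 and 15.1 RPKM in young. It went the other way, with 0.15 ± 0.10 (SE, limma adjusted p = 0.736) and 0.21 ± 0.06 without young replicate 1 (SE, limma adjusted p = 0.0359), and 32.8% of its 50-base stretches occurred in other genes. Acaca, the acetyl-CoA carboxylase that commits carbon to fatty acids, was at 3.58, 3.20 and 3.57 RPKM in old and at 1.91, 3.82 and 3.47 RPKM in young. On the log2 scale its fold change was 0.16 with all libraries and -0.06 without young replicate 1, and 52.6% of its stretches occurred in Gm5182.

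Fasn, the fatty acid synthase, lies on chromosome 11 from 120805846 to 120824547 (mm10) and was at 6.72, 6.16 and 6.66 RPKM in old and at 3.47, 8.56 and 8.57 RPKM in young. The old libraries lay between young replicate 1 and the other young libraries. The log2 fold change was 0.02 ± 0.30 (SE, limma adjusted p = 0.998) and turned to -0.35 ± 0.06 without young replicate 1 (SE, limma adjusted p = 0.00828). Elovl6, which elongates the palmitate made by that enzyme, was at 8.95, 8.90 and 10.8 RPKM in old and at 7.24, 13.8 and 13.1 RPKM in young. It had the same arrangement of libraries, and its log2 fold change was -0.18 ± 0.24 (SE, limma adjusted p = 0.941), and -0.45 ± 0.09 without young replicate 1 (SE, limma adjusted p = 0.0134). That was the most negative value of the 29 genes in the fit without this library.

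Among the desaturases young replicate 1 departed by unequal amounts. Scd1 was at 16.2, 13.5 and 17.9 RPKM in old and at 9.77, 22.1 and 20.3 RPKM in young. Scd2, its more abundant paralog here, was at 92.3, 86.5 and 88.0 RPKM in old and at 92.1, 94.8 and 96.5 RPKM in young. Young replicate 1 held 0.461 of the mean of the other young libraries for Scd1 and 0.963 for Scd2. Both desaturases place a double bond in stearate and palmitate, and their transcripts shared few stretches, 3.03% of those of Scd1 with Scd2. Without young replicate 1 the log2 fold change was -0.40 ± 0.11 for Scd1 (SE, limma adjusted p = 0.0351) and -0.10 ± 0.05 for Scd2 (SE, limma adjusted p = 0.15). The difference between the paralogs was not tested. With all libraries the values were -0.06 and -0.09.

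Fads1 and Fads2, the desaturases of polyunsaturated fatty acid synthesis, lie next to each other on chromosome 19. Fads1 was at 28.9, 26.1 and 27.1 RPKM in old and at 20.9, 29.4 and 30.8 RPKM in young. Fads2 was at 71.2, 66.8 and 71.7 RPKM in old and at 30.3, 85.0 and 80.7 RPKM in young. For Fads2 the widest interval of the 29 genes resulted, from -0.71 to 1.17 around a log2 fold change of 0.23. Without young replicate 1 Fads2 was called lower at -0.24 ± 0.06 (SE, limma adjusted p = 0.02), and Fads1 was not, at -0.13 ± 0.06 (SE, limma adjusted p = 0.125).

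**Figure D3:**
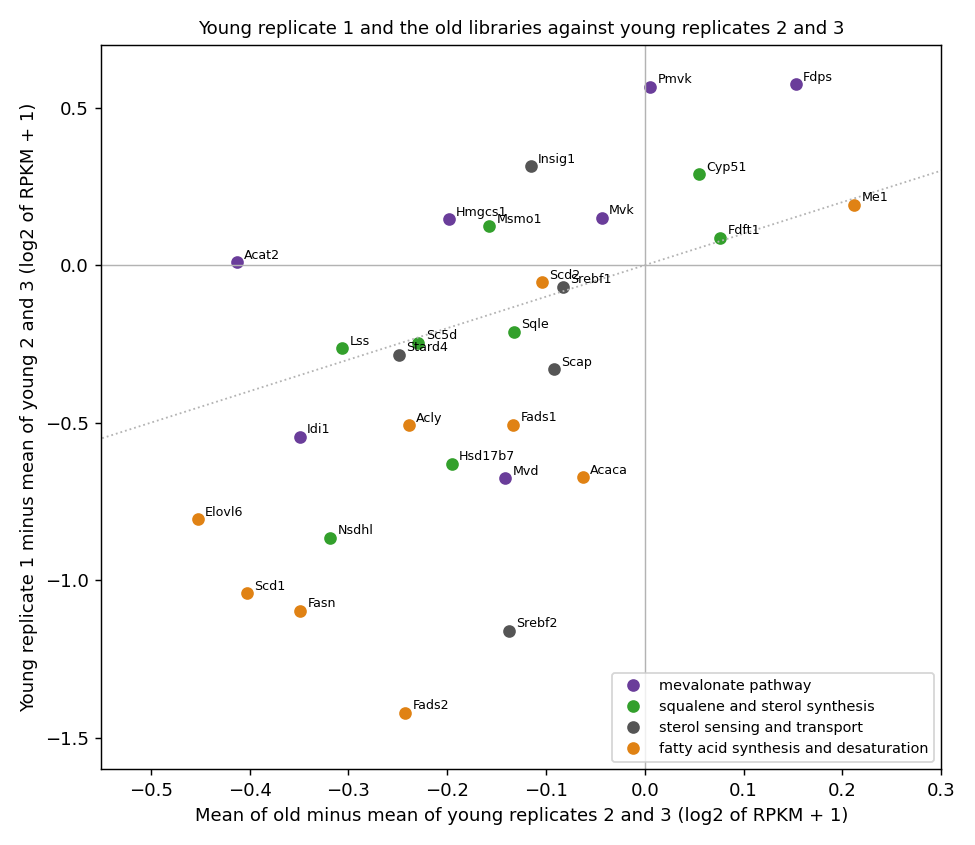
Each point is 1 of the 29 tested genes, with the mean of the old libraries (horizontal) and young replicate 1 (vertical) each given as a difference from the mean of young replicates 2 and 3, in log2 of RPKM + 1; the dotted line marks equal differences. Both axes subtract the same 2 libraries, so points share error along that line and no likeness of young replicate 1 to old is read from it; most fatty acid genes lie in the lower left, below the line, where young replicate 1 is lower than the old libraries.

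Young replicate 1 was below both other young libraries in 19 genes and above both in 9, against 57.2% and 36.4% of all genes tested. By role, it was below in 8 of 9 fatty acid genes, 4 of 5 sensing and transport genes, 5 of 8 sterol genes and 2 of 7 mevalonate genes. Against the same 2 libraries the old libraries lay wholly below in 22 of the 29 genes and wholly above in 4, where 38.8% and 23.7% of all genes tested did so. The log2 fold change was negative in 19 genes with all libraries and in 24 without young replicate 1. It was positive in 10 and 5 genes, against 51.2% and 40.6% of all genes tested, so the whole table also moved down. The labels give no ground to leave out a library. Comparisons with and without young replicate 1 share the other 5 libraries.

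**Figure D4:**
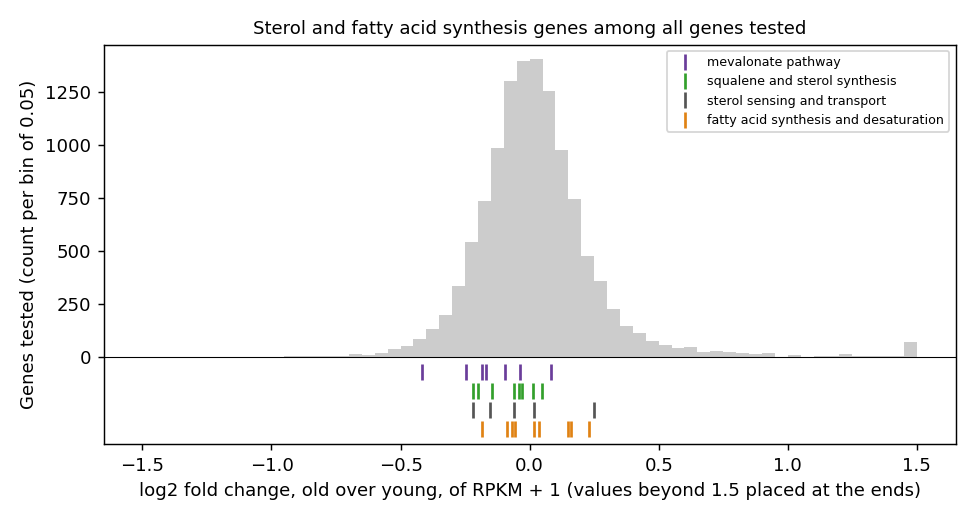
Histogram of limma's log2 fold change, old over young, on the log2(RPKM + 1) scale, for all 12015 genes tested in all 6 libraries, with the 29 genes of the pathway as ticks below it, in 1 row for each role. The ticks lie between -0.42 and 0.25, with Acat2 as the lowest and Srebf2 as the highest.

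Other genes of sterol and fatty acid metabolism also held no called gene. Of 69 listed, 66 were found by symbol (the other 3 were not analysed here) and 55 were tested, with 0 called higher and 0 called lower by limma and, at an unadjusted p under 0.05, 1 higher and 3 lower. Their median log2 fold change was 0.02. Without young replicate 1 there were 3 called higher and 7 lower, or 5.45% and 12.7%, where 13.2% and 19.4% of all genes were called. Old lay wholly above young in 6 of the 55 and wholly below in 8, where 10.6% and 10.2% of all genes did so. Among 11 further sterol synthesis genes, Tm7sf2, a sterol reductase, had 1.12, 1.10 and 0.818 RPKM in old and 1.22, 1.16 and 1.17 RPKM in young. Old lay wholly below young, and the log2 fold change of -0.12 was not called (limma adjusted p = 0.784).

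Among 12 regulators Insig2, the paralog of Insig1, was at 3.43, 3.03 and 3.54 RPKM in old and at 3.61, 3.67 and 4.13 RPKM in young (log2 fold change -0.15, limma adjusted p = 0.724). Rxra, the partner of the oxysterol receptors, stood at -0.13 on the same scale (limma adjusted p = 0.786). The oxysterol receptor Nr1h3 and the glucose-responsive factor Mlxipl were below the filter, at 0.0911 to 0.245 RPKM and at most 0.00436 RPKM over the 6 libraries. The floor of 3 reads for Mlxipl was 0.00835 RPKM in the shallowest library, so its level was not distinguishable from 0 at this depth. Among 13 uptake, esterification and efflux genes, Mylip, a ubiquitin ligase that degrades lipoprotein receptors, was at 7.82, 7.05 and 6.76 RPKM in old and at 7.89, 9.66 and 9.13 RPKM in young. Its log2 fold change of -0.27 ± 0.11 was not called (SE, limma adjusted p = 0.432), and without young replicate 1 it was called at -0.34 ± 0.07 (SE, limma adjusted p = 0.0155). Soat1, which esterifies cholesterol for storage, had 3.32, 2.87 and 3.48 RPKM in old and 1.54, 3.11 and 2.51 RPKM in young, which overlapped, and the log2 fold change was 0.34 ± 0.19 (SE; adjusted p = 0.636 in limma), or 0.15 without young replicate 1.

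Among 19 further fatty acid genes, Oxsm, a synthase of the mitochondrial pathway, was at 1.56, 1.43 and 1.60 RPKM in old and at 2.44, 1.88 and 1.94 RPKM in young. Elovl5, an elongase of polyunsaturated fatty acids, was at 12.6, 13.2 and 13.4 RPKM in old and at 20.1, 15.0 and 16.0 RPKM in young. Old lay wholly below young in both, with young replicate 1 the highest library. Neither was called with all libraries (limma adjusted p = 0.34 and 0.363), and both were called lower without young replicate 1 (limma adjusted p = 0.0494 and 0.0254). In the other direction, and chosen after their values were seen, Pnpla2, a lipase of stored triglyceride, was at 1.35, 1.43 and 1.46 RPKM in old and at 1.18, 1.10 and 1.13 RPKM in young. Acot7, which hydrolyses acyl-CoA, was at 21.5, 22.4 and 21.1 RPKM in old and at 20.6, 16.4 and 16.9 RPKM in young. Old lay wholly above young in both. Neither was called with all libraries (limma adjusted p = 0.402 and 0.449), and without young replicate 1 Acot7 was called higher (limma adjusted p = 0.00513) and Pnpla2 was not (limma adjusted p = 0.051). Npc2, which carries cholesterol out of lysosomes, was at 32.0, 33.2 and 33.7 RPKM in old and at 46.5, 24.6 and 27.3 RPKM in young. It was called higher without young replicate 1 (limma adjusted p = 0.0101) and not with all libraries, where the groups overlapped.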

How the data were processed

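RPKM values (read counts scaled by gene length and library depth) were deposited by the authors for 3 libraries of old and 3 of young mice, with a gene length per row. The submitters' processing notes name fastp, STAR, HTSeq, edgeR and build mm10, without versions. Settings, gene models and strandedness were not stated in these sources. The 30 genes and the further lists were chosen with earlier results of these data known.

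The deposited RPKM and lengths gave back whole reads for 100% of values within a tolerance of 0.01, 64881180 to 84535939 per library. No 2 libraries held an identical value above 0 for the same gene, and chi-square per degree of freedom between replicates was 9.51 to 483. Removal of PCR copies was not stated, and floors of 3 reads cover counting error only.

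Limma 3.58.1 (R 4.3.3) was fitted to log2(RPKM + 1) of the 12015 rows at 1 RPKM or more in at least 3 libraries, with a variance trend and group as the only term. This scale understates changes of low genes. P-values were two-sided and adjusted by Benjamini-Hochberg over all rows, with calls at 0.05. The method was tested on simulated data, but the results are not given here and nothing about these libraries is read from them. All 30 genes were named. Of each further list, called genes or otherwise the 2 of smallest p were named, while Nr1h3, Mlxipl, Pnpla2, Acot7 and Npc2 were chosen after their values were seen. For 1 list, 1 gene that this rule names is not reported here. Alternatives were other pseudocounts, filters, scalings, weights, thresholds, voom, removal of a length trend (loess, span 0.5), a replicate block and leaving out each library with the tested rows kept. Shared 50-base stretches were counted in GENCODE transcripts (release M21), and exon overlaps in the deposited coordinates.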

Additional observations from a re-analysis of the deposited data

How the results depend on the processing

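Of 517 log2 fold changes of the 29 genes under 18 alternatives, 457 kept their sign and their side of the threshold, 21 passed it in the same direction and 39 turned sign. Changing the filter or the threshold, or adding the replicate block, leaves the log2 fold change itself as it was, so no sign could turn there. The median log2 fold change of the 29 genes lay between -0.14 without young replicate 1 and -0.03 without young replicate 2. Pathway genes called higher numbered 0 to 1 and lower 0 to 10 when each library was left out, and other pathway genes 0 to 3 higher and 0 to 7 lower, with the upper ends without young replicate 1. Calls over the whole table rose there too, to 13.2% of all genes higher and 19.4% lower. With any other library left out, 0.666% to 1.15% of all genes were called higher and 0% to 0.0166% lower. Removing the length trend called 1 pathway gene lower, Acat2, and so did an adjusted p under 0.1, where 0.366% and 0.516% of all genes were called lower. Library weights, 1 per library, called 1 pathway gene higher and 10 lower, and 7 and 10 other pathway genes, where 17.6% and 24.6% of all genes were called. The adjusted p of Acat2 ranged from 0.00118 with library weights to 0.549 with the replicate block. Upper-quartile scaling turned the sign, to -0.00816 in Fasn. Quantile normalization turned the sign, to -0.12 in Hsd17b7, -0.0128 in Scap, -0.0255 in Fasn and -4.49e-05 in Fads1. Removing the length trend turned the sign, to -0.00973 in Hsd17b7. Library weights turned the sign, to -0.13 in Mvd, 0.12 in Fdps, 0.0519 in Cyp51, -0.18 in Hsd17b7, -0.0783 in Srebf2, -0.0858 in Scap, -0.32 in Fasn, -0.12 in Fads1 and -0.19 in Fads2. Leaving out each library in turn gave log2 fold changes of -0.29 to 0.0054 in Pmvk, -0.14 to 0.21 in Mvd, -0.16 to 0.15 in Fdps, -0.13 to 0.000625 in Sqle, -0.0906 to 0.0551 in Cyp51, -0.32 to 0.12 in Nsdhl, -0.20 to 0.14 in Hsd17b7 and -0.14 to 0.46 in Srebf2. It gave -0.0917 to 0.0784 in Scap, -0.24 to 0.0244 in Acly, -0.0627 to 0.30 in Acaca, -0.35 to 0.20 in Fasn, -0.40 to 0.15 in Scd1, -0.13 to 0.14 in Fads1 and -0.24 to 0.49 in Fads2. The cause of these turns was not tested.

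Replicate numbers are shared between old and young in the labels, and the labels do not say that a number marks a shared batch. The libraries were not treated as pairs because the labels name no such covariate. Deviations from the group means correlated at -0.0257, -0.436 and 0.329 across genes in the 3 same-numbered pairs. In differently numbered pairs they correlated at -0.417 to 0.431. Deviations within a group of 3 offset each other, so these values cannot decide whether a number marks a pair. With a replicate block 0 of the 29 genes were called higher and 0 lower, and 82 genes higher and 0 lower (0.682% and 0%) over the whole table. Without young replicate 1 the 95% interval of Fads2 ran from -0.37 to -0.11, against -0.71 to 1.17 with all libraries.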
